A study of Mus musculus with 416 samples.

Results

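A gene-dense domain of mouse chromosome 10 was followed through the preimplantation embryo, in embryos injected with an siRNA against Rif1 and in control-injected embryos. The domain was chosen by position: bins of 50 kb on chromosome 10 from 78 to 84 Mb (GRCm38) with a state in 10 or more cells of each of 6 groups. This gave 109 bins of the 120 in the interval, out of 46015 such bins of 49264 on the autosomes. The core from 80 to 82 Mb held 32 of the 109 bins, and 5 genes in it served as landmarks. They are Sbno2 (chr10:80056992-80106108), Rps15 (chr10:80292431-80294114), Dot1l (chr10:80755101-80795461), Gng7 (chr10:80948624-81014925) and Nfic (chr10:81396191-81431919), each read at the bin of its midpoint. The interval was picked because it was later in siRif1 8-cell embryos, so all 8-cell values of siRif1 against siCont are a description. The 4-cell and morula values come from other cells.

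Cells copy their DNA in a fixed order during S phase, and gene-rich, transcribed domains are usually copied early. Rif1 is a chromatin protein that recruits protein phosphatase 1 and so counteracts the kinase that activates replication origins, and in cultured mammalian cells its loss loosens the separation of early and late domains. In the mouse embryo the timing programme is known to be weakly defined in the first cleavages and to sharpen later.

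Single blastomeres of (C57BL/6J xCBA) x DBA/2J embryos were measured. Zygotes received 20 µM of an siRNA against Rif1 (siRif1) or of a control siRNA (siCont) 17 to 18 h after hCG and grew to the 4-cell, 8-cell or morula stage, so every group was injected. The tables held 51 siRif1 and 49 siCont cells at the 4-cell stage, 50 and 60 cells at the 8-cell stage and 45 and 44 cells at the morula stage. Each cell has a state per bin, read here as replicated (1) or not (0). The remaining Rif1 level is not measured by these data. One siRif1 cell of the 8-cell stage had no state on chromosome 10, which leaves 49. The states of the 2 homologous chromosomes are not separated. No embryo, litter or batch is named for a cell, so each group counts as 1 sample, no p-value is given, and intervals are exact 95% Clopper-Pearson intervals that cover counting error only.

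The core is one of the gene-richest stretches of the mouse autosomes. It held the midpoints of 104 protein-coding genes, the third highest number among 1167 windows of 2 Mb, whose median was 11 genes. Its promoters were rich in CpG dinucleotides, the sequence on which CpG island promoters are built. In the 250 bases upstream of the first listed start (RefSeq, GRCm38.p6), 65 of 78 promoters of measured core genes held 10 or more CG (both strands read the same), against 38.8% of all 25748 autosomal promoters of the table. The median count was 17 CG in core promoters and 6 CG in all. The chemosensory receptor genes to the left of the core had a median of 0.5 CG over 12 promoters, and none of these held 10 or more. The promoters of Dot1l, Rps15 and Nfic, with 44, 14 and 19 CG, are printed as examples from the core. That of the receptor gene Vmn2r82, with 3 CG, is printed as an example from the left of the core. The listed starts used for Dot1l and Nfic lie inside the gene spans given above. The Dot1l stretch thus overlaps its gene in part, and the Nfic stretch lies within its gene. Capitals mark CG.
Dot1l, chr10:80754953-80755202, plus strand: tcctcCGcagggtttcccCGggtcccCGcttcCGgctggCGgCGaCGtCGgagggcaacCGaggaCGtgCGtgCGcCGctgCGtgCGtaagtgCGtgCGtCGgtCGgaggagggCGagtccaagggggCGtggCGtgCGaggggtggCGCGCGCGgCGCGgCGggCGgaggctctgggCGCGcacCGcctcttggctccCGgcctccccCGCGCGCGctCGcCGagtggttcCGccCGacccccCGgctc
Rps15, chr10:80292181-80292430, plus strand: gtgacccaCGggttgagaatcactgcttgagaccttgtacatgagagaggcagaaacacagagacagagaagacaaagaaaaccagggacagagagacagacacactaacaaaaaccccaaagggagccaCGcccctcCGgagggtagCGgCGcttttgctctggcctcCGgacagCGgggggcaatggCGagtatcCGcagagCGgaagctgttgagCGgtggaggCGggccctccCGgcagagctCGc
Nfic, chr10:81427174-81427423, minus strand: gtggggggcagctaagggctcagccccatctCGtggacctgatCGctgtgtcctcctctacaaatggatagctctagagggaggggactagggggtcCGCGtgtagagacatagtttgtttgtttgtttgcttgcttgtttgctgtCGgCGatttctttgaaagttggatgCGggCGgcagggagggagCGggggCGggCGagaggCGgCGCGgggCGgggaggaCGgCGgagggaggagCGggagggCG
Vmn2r82, chr10:79356341-79356590, plus strand: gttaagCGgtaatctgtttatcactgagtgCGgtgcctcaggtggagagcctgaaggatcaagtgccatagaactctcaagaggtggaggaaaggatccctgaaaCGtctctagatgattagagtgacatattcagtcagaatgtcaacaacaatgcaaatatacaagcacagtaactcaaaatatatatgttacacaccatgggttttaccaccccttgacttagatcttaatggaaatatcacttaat

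The core stood above a trough on its left in every group, and it stood lower in siRif1 than in siCont embryos at all 3 stages. The replicated share, which is the percent of measured cells with the bin replicated, averaged 40.1% over the core in siRif1 and 56% in siCont 4-cell embryos. It averaged 17.7% in siRif1 and 63.5% in siCont 8-cell embryos, and 63.8% in siRif1 and 74.5% in siCont morulae. The means over all used bins were 50.5% in siRif1 and 46.5% in siCont 4-cell embryos, 43% in siRif1 and 49.2% in siCont 8-cell embryos, and 49.98% in siRif1 and 49.4% in siCont morulae. The core thus lay above the group mean in all 3 siCont groups and, among siRif1 groups, only in morulae. In all 3 siRif1 groups the core lay below both ends of the interval. From 78 to 78.5 Mb the siRif1 share was 57.6, 34.3 and 67.1% at the 4-cell, 8-cell and morula stages. From 83.5 to 84 Mb it was 52.2, 37.6 and 66.9%. In siCont embryos the left end stood at 56.5, 69.2 and 76.6%, above the core, and the right end at 49.8, 51.7 and 65.7%, below it. Immediately to the left, from 79 to 79.3 Mb, where Olfr and Vmn2r genes lie, the share was 21.6% in siRif1 and 14.6% in siCont 4-cell embryos, and 24.4% in siRif1 and 14.4% in siCont morulae. That trough of 6 bins was delimited after seeing the profiles.

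The contrast between core and trough was smallest in siRif1 embryos of the 8-cell stage. Single bins of the core were replicated in 14.3 to 22.4% of siRif1 cells, against 60 to 66.7% of siCont cells. These ranges run over neighbouring bins of the same cells, in the contrast that chose the interval. The trough stood at 7.48% in siRif1 and 21.7% in siCont cells. The core thus stood 10.2 points above its trough in siRif1 and 41.8 points above it in siCont cells of the 8-cell stage. The gap was 18.5 points in siRif1 and 41.4 points in siCont 4-cell embryos, and 39.3 points in siRif1 and 60.1 points in siCont morulae. Relative to the mean of all used bins, the core was 25.3 points late in siRif1 and 14.3 points early in siCont. Among the 1167 windows of 2 Mb it ranked 7 from the latest in siRif1 and 252 from the earliest in siCont cells.

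**Figure D1:**
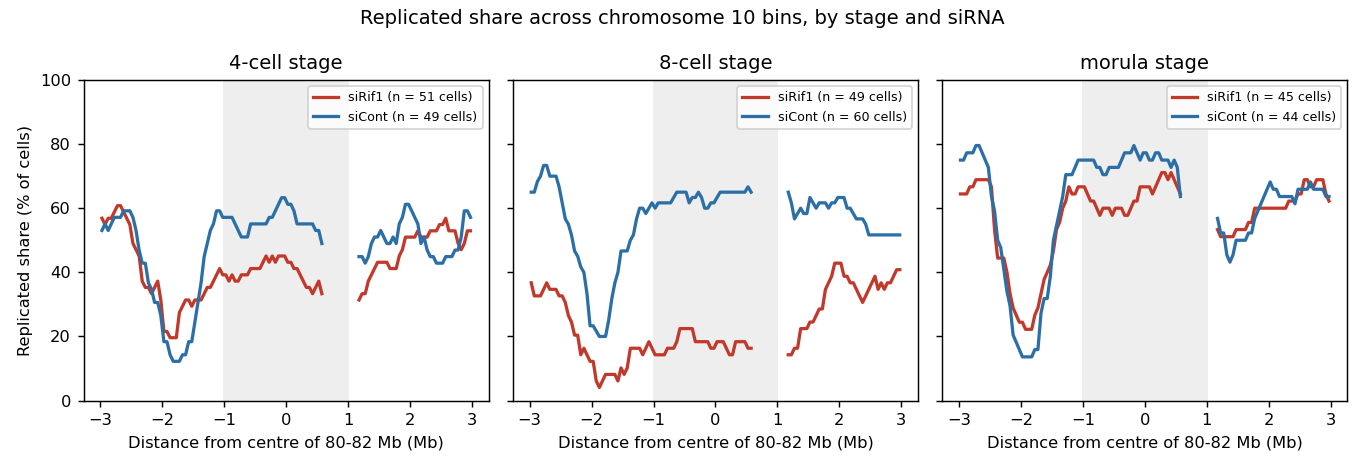
Replicated share (percent of measured cells, vertical axis) of each used 50-kb bin against its distance in Mb from the centre of the 80 to 82 Mb core (horizontal axis), for siRif1 (red) and siCont (blue) cells of the 3 stages; the grey band is the core and the break is the stretch without states. The siRif1 curve of the 8-cell stage stays between 14.3 and 22.4% over the core, where the siCont curve lies between 60 and 66.7%.

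The displacement of the core was measured at each stage as a shift. The shift of a bin is its replicated share minus the mean over all used bins of the group, in siRif1 minus siCont cells, in percentage points, and a negative shift means later. The mean shift of the core was -19.8 points at the 4-cell stage, -39.6 points at the 8-cell stage and -11.3 points at the morula stage. The 8-cell shift is the value on which the interval was chosen, so its size relative to the other stages is part of that choice. The shift was negative in 32 of 32 bins at the 4-cell and 8-cell stages and in 31 of 32 bins at the morula stage. At these stages 50.2, 47.9 and 50.9% of all used bins had a negative shift, and 59.6, 71.9 and 74.8% of all measured genes. The core is gene-dense, and its neighbouring bins come from the same cells and smoothed states, so they are not separate measurements. Of 1167 windows, the core had the second lowest shift at the 4-cell stage. Only the window from 88 to 90 Mb of chromosome 15, with Ppp6r2, was lower (-22.0 points). At the morula stage the core ranked 162 from the lowest. With the classes of S phase position that held cells of both treatments weighted alike, its morula shift turned to 1.69 points. Neither the size nor the sign of the shift was thus firm there.

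Most of the core was replicated in 20 of 51 siRif1 cells (39.2%, interval 25.8 to 53.9%) and 29 of 49 siCont cells (59.2%, interval 44.2 to 73.0%) of the 4-cell stage. The counts were 8 of 49 siRif1 cells (16.3%, interval 7.32 to 29.7%) and 38 of 60 siCont cells (63.3%, interval 49.9 to 75.4%) at the 8-cell stage. At the morula stage they were 30 of 45 siRif1 cells (66.7%, interval 51 to 80%) and 34 of 44 siCont cells (77.3%, interval 62.2 to 88.5%). The intervals overlapped at the 4-cell and morula stages and did not at the 8-cell stage, whose contrast chose the stretch of chromosome 10.

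Set against the other bins of each group, the core had the following levels over development. In siRif1 embryos the core lay 10.4 points later than the mean of all used bins at the 4-cell stage, 25.3 points later at the 8-cell stage and 13.8 points earlier in morulae. In siCont embryos it lay 9.45, 14.3 and 25.1 points earlier at the same stages. The morula value minus the 4-cell value was 24.2 points in siRif1 and 15.7 points in siCont embryos, a difference that was not tested because each group is 1 sample. Steps to and from the 8-cell stage are not compared between treatments, since the interval was chosen for its late siRif1 8-cell value.

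The 5 landmark genes carried the same pattern, and they are not separate measurements. Sbno2 encodes a transcriptional coregulator of the Strawberry notch family. At the 8-cell stage its bin was replicated in 7 of 49 siRif1 cells (14.3%, interval 5.94 to 27.2%) and 37 of 60 siCont cells (61.7%, interval 48.2 to 73.9%). Rps15, a protein of the small ribosomal subunit, was replicated in 8 of 49 siRif1 and 37 of 60 siCont cells, and Dot1l, the histone H3 lysine 79 methyltransferase, in 9 of 49 siRif1 and 38 of 60 siCont cells. Gng7, a G protein gamma subunit, stood at 8 of 49 siRif1 and 37 of 60 siCont cells. Nfic, a transcription factor of the nuclear factor I family, stood at 9 of 49 siRif1 and 39 of 60 siCont cells. For each of the 5 genes the siRif1 interval ended below the siCont interval, the nearest bounds being 32% and 48.2%. The genes lie in an interval chosen for its late siRif1 8-cell values, so this separation is part of that choice.

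The shifts of the landmarks were negative at the 4-cell stage as well. Sbno2 was replicated in 19 of 51 siRif1 and 28 of 49 siCont cells (shift -23.8 points), and Nfic in 17 of 51 siRif1 and 27 of 49 siCont cells (-25.7 points). Gng7 stood at 23 of 51 siRif1 and 31 of 49 siCont cells (-22.1 points). These 3 genes thus had shifts of over 20 points. Rps15 stood at 20 of 51 siRif1 and 25 of 49 siCont cells (-15.7 points) and Dot1l at 23 of 51 siRif1 and 28 of 49 siCont cells (-16.0 points). The siRif1 and siCont intervals overlapped for every one of the 5 genes at this stage.

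The morula shifts of the landmarks were negative and differed in size, and differences between landmarks were not tested. Dot1l was replicated in 27 of 45 siRif1 and 34 of 44 siCont cells (shift -17.9 points), and Rps15 in 26 of 45 siRif1 and 32 of 44 siCont cells (-15.5 points). Gng7 stood at 30 of 45 siRif1 and 34 of 44 siCont cells (-11.2 points) and Sbno2 at 29 of 45 siRif1 and 33 of 44 siCont cells (-11.1 points). Nfic, towards the right end, stood at 32 of 45 siRif1 and 32 of 44 siCont cells (-2.20 points). Bin shifts of the morula core ran from -20.1 to 0.222 points, against -44.5 to -33.0 points at the 8-cell stage and -25.7 to -13.9 points at the 4-cell stage. All siRif1 intervals overlapped those of siCont in morulae.

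**Figure D2:**
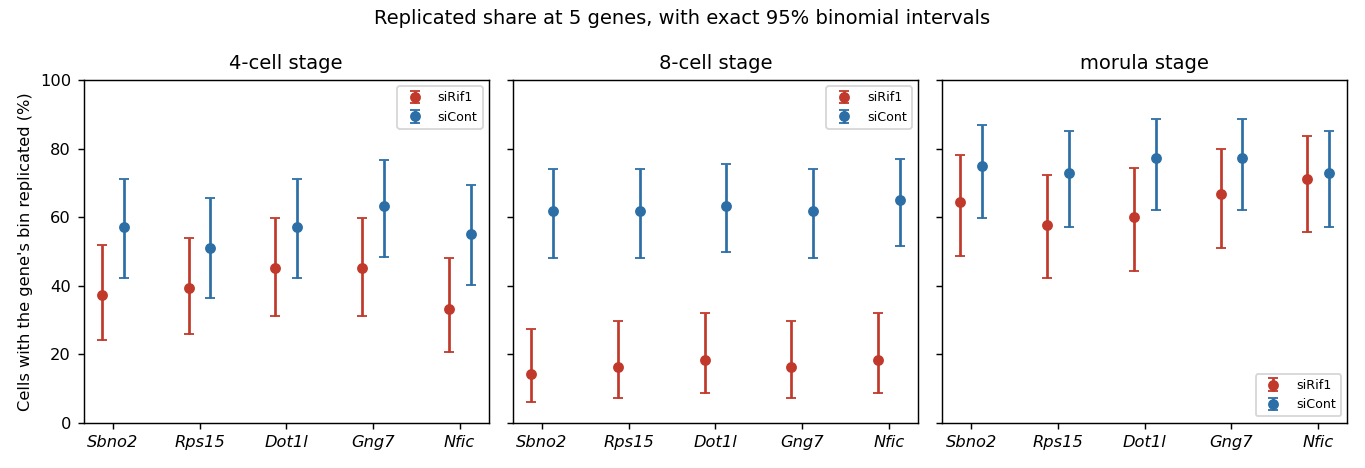
Percent of cells with the bin of each gene's midpoint replicated (vertical axis) for the 5 landmark genes in genome order (horizontal axis), in siRif1 (red) and siCont (blue) cells; bars are exact 95% binomial intervals. At the 8-cell stage, whose contrast chose the interval on chromosome 10, every siRif1 bar lies below every siCont bar, with 32 and 48.2% as the nearest bounds.

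The delay at the 8-cell stage was broader than the core. Of the 109 bins, 51 were at least 30 points later, against 1.06% of all used bins, a count that the choice of the interval used. They lay between 78.15 and 82.6 Mb, and 32 of them were the core itself. In windows of 0.5 Mb the shift was -28.7 points from 78 to 78.5 Mb, -14.6 points from 79 to 79.5 Mb, -41.3 points from 81 to 81.5 Mb and -7.93 points from 83.5 to 84 Mb. All 109 bins had a negative shift at this stage. No bin of the interval was at least 30 points later or earlier at the 4-cell or morula stage, where 0.0435 and 0.461% of all used bins were at least that much later and 0.0196 and 0.608% at least that much earlier. None was at least 30 points earlier at the 8-cell stage either, against 0.224% of all used bins.

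The position limits fell inside the delay on the left and at its end on the right. The first bin inside on the left had an 8-cell shift of -22.1 points and the bin just outside one of -24.1 points. On the right the last bin inside stood at -4.67 points and the next one outside at -5.04 points. The requirement for 10 measured cells set no gradual limit, because every used bin had at least 44 measured cells in each group. The 11 unused bins lay together from 81.6 to 82.15 Mb, a stretch that holds mostly zinc finger and predicted genes, and each of them had no measured cell in at least 1 group. The first of them was measured in 5 groups.

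**Figure D3:**
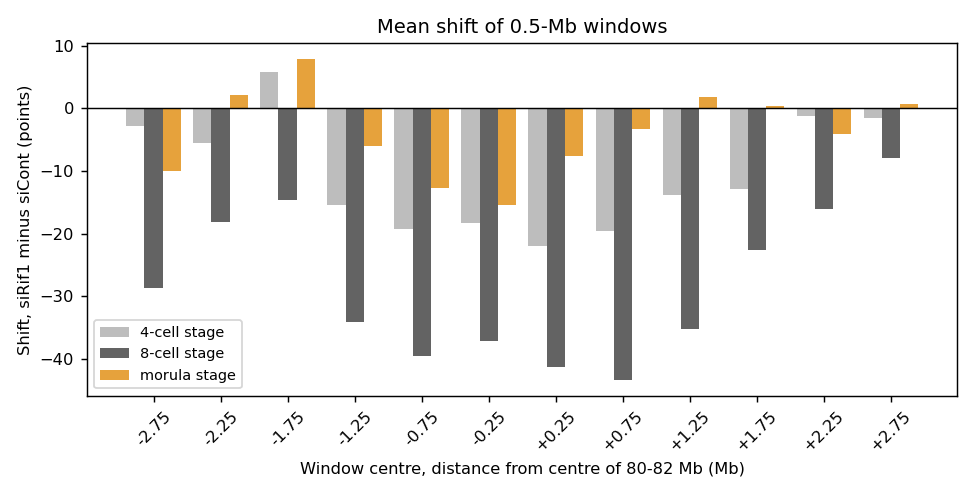
Mean shift (siRif1 minus siCont, percentage points, vertical axis) of windows of 0.5 Mb against the distance of their centre from that of the core (Mb, horizontal axis), at the 4-cell, 8-cell and morula stages; the windows next to the unmeasured stretch rest on 2 and 7 bins. The 8-cell bars are negative throughout and deepest over the core. The window from 79 to 79.5 Mb, over part of the receptor genes, is positive at the 4-cell stage (5.88 points) and in morulae (7.82 points).

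The left border of the core lay between 79.25 and 79.6 Mb in all 6 groups, while its height differed. It was taken as the boundary in 78 to 80 Mb with the largest step between the mean shares of 5 bins on each side. Its place was 79.25 Mb in siRif1 and 79.6 Mb in siCont 4-cell embryos, near Vmn2r81 and C2cd4c. At the 8-cell stage it lay at 79.6 Mb in siRif1 and 79.35 Mb in siCont embryos, near C2cd4c and Vmn2r82. In morulae it lay at 79.55 Mb in siRif1 and 79.5 Mb in siCont embryos, near Mier2 and Vmn2r83. The shortest run of 1 state within a chromosome of the tables was 250 kb, which limits how finely a border can be placed. The borders of siRif1 4-cell and siCont 8-cell embryos thus fell within the Vmn2r genes, and the other 4 lay right of Vmn2r83.

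The step at this border was 9.41 points in siRif1 and 26.5 points in siCont 4-cell embryos, 7.35 points in siRif1 and 20.0 points in siCont 8-cell embryos, and 19.6 points in siRif1 and 30.5 points in siCont morulae. It was lower in siRif1 at each stage. In single cells, a switch from unreplicated to replicated between 79 and 80 Mb was present in 10 of 49 siRif1 and 33 of 60 siCont cells of the 8-cell stage. The counts were 18 of 51 siRif1 and 25 of 49 siCont cells at the 4-cell stage, and 23 of 45 siRif1 and 28 of 44 siCont cells in morulae.

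The right border was less fixed. In morulae the steepest step to the right lay across the unmeasured stretch, with 16.4 points in siRif1 and 21.8 points in siCont cells. Its place at the 4-cell stage was 81.2 Mb in siRif1 (6.67 points, near Nmrk2) and 83.15 Mb in siCont cells (11.4 points, near Chst11). At the 8-cell stage it lay at 83.15 Mb in siRif1 (6.94 points) and at 82.2 Mb in siCont cells (6.33 points, near Zfp938). With 10 bins on each side the siCont position moved to 83.35 Mb, so siCont 8-cell cells had no fixed right border. In siRif1 8-cell cells the share climbed to the right instead, with 17.3% from 81 to 81.5 Mb, 32.9% from 82.5 to 83 Mb and 37.6% from 83.5 to 84 Mb. In siCont cells of that stage these windows stood at 64.8, 61.7 and 51.7%.

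Within single cells the core was replicated in part in 16 of 51 siRif1 and 16 of 49 siCont cells of the 4-cell stage, in 8 of 49 siRif1 and 18 of 60 siCont cells of the 8-cell stage, and in 19 of 45 siRif1 and 18 of 44 siCont cells of morulae. The remaining cells had all of its bins in 1 state. Sbno2 and Nfic, 1.35 Mb apart, had the same state in 45 of 49 siRif1 and 50 of 60 siCont cells of the 8-cell stage. They did so in 43 of 51 siRif1 and 42 of 49 siCont cells of the 4-cell stage and in 36 of 45 siRif1 and 33 of 44 siCont cells of morulae. In siRif1 8-cell embryos this was mostly shared absence, with both genes unreplicated in 39 cells and both replicated in 6, against 17 and 33 cells in siCont 8-cell embryos. The states were smoothed or segmented before deposit, which by itself makes near bins alike.

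The core was wholly unreplicated in 36 of 49 siRif1 and 14 of 60 siCont cells of the 8-cell stage, and wholly replicated in 5 siRif1 and 28 siCont cells. It was wholly unreplicated at the 4-cell stage in 24 of 51 siRif1 and 15 of 49 siCont cells, and in morulae in 8 of 45 siRif1 and 6 of 44 siCont cells. Around Rps15, the unreplicated run of an 8-cell embryo cell had a median length of 6.70 Mb in 41 siRif1 cells and 3.95 Mb in 23 siCont cells. The replicated run had a median length of 2.00 Mb in 8 siRif1 cells and 3.30 Mb in 37 siCont cells. The unreplicated run had a median of 6.10 Mb in 31 siRif1 and 3.50 Mb in 24 siCont cells of the 4-cell stage, and of 3.65 Mb in 19 siRif1 and 3.35 Mb in 12 siCont cells of morulae. The replicated run had a median of 4.45 Mb in 20 siRif1 and 3.30 Mb in 25 siCont cells of the 4-cell stage, and of 4.40 Mb in 26 siRif1 and 2.88 Mb in 32 siCont cells of morulae. The replicated run was thus the shorter in siRif1 cells at the 8-cell stage and the longer at the other stages.

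Cells with most of the core but not of the trough replicated outnumbered those with the reverse in each of the 6 groups. The trough was delimited as a low stretch after seeing the profiles, so this order is part of that choice. Most of the core was replicated without the trough in 7 of 49 siRif1 and 29 of 60 siCont cells of the 8-cell stage, and the reverse was seen in 1 siRif1 and 2 siCont cells. Core without trough was seen at the 4-cell stage in 11 of 51 siRif1 and 25 of 49 siCont cells, and the reverse in 1 and 2 cells. In morulae it was seen in 23 of 45 siRif1 and 29 of 44 siCont cells, and the reverse in 3 and 1 cells. Neither was replicated in 40 of 49 siRif1 and 20 of 60 siCont cells of the 8-cell stage, in 30 of 51 siRif1 and 18 of 49 siCont cells of the 4-cell stage, and in 12 of 45 siRif1 and 9 of 44 siCont cells of morulae.

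**Figure D4:**
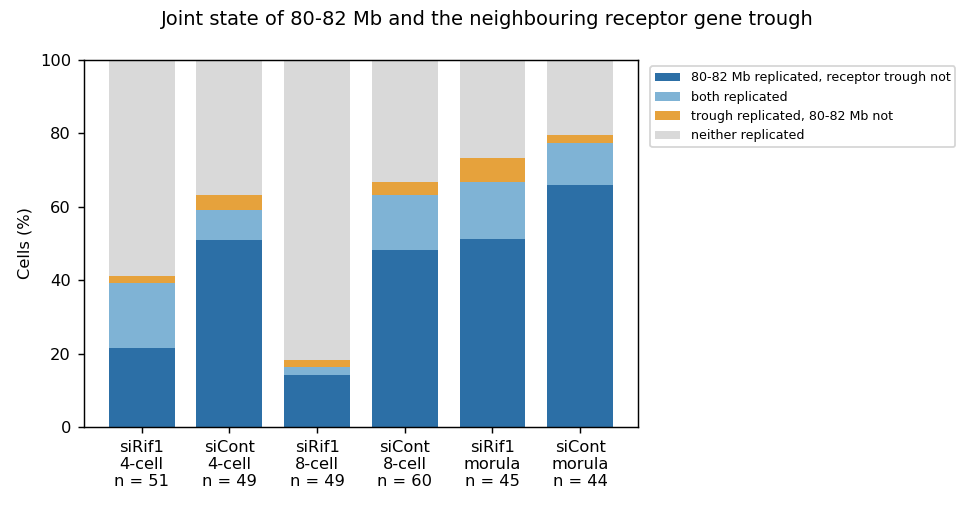
Percent of cells (vertical axis) by the joint state of the core and of the receptor gene trough from 79 to 79.3 Mb, in each group (horizontal axis); a stretch counts as replicated where most of its bins are. Core without trough makes up 7 of 49 siRif1 and 29 of 60 siCont cells of the 8-cell stage, and trough without core is rare in all 6 groups, with 1 to 3 cells. The trough was delimited as a low stretch after seeing the profiles.

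The 8-cell difference was also present within ranges of S phase position, in the same cells and contrast that chose the interval. Position was measured as the percent of bins replicated on the other autosomes. Among 8-cell embryo cells from 20 to 40%, most of the core was replicated in 2 of 17 siRif1 cells (11.8%, interval 1.46 to 36.4%) and 11 of 16 siCont cells (68.8%, interval 41.3 to 89.0%). From 40 to 60% the counts were 5 of 22 siRif1 cells (22.7%, interval 7.82 to 45.4%) and 14 of 25 siCont cells (56%, interval 34.9 to 75.6%). From 60 to 80% they were 1 of 7 siRif1 and 8 of 12 siCont cells, whose mean positions were 63.6 and 68.9%. No siRif1 cell of this stage lay above 80%, so whether the core is completed late in S phase cannot be read from these cells.

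At the 4-cell stage the same ranges gave 4 of 12, 10 of 24 and 5 of 11 siRif1 cells, against 7 of 16, 6 of 9 and 8 of 14 siCont cells. In morulae they gave 9 of 16, 10 of 13 and 9 of 14 siRif1 cells, against 7 of 10, 20 of 24 and 6 of 8 siCont cells. The siRif1 share was the lower in all 9 pairs of stage and range, where the 8-cell pairs belong to the contrast that chose the interval. Intervals overlapped in all 9 pairs except the 20 to 40% range of the 8-cell stage. Outside these ranges cells were few. Below 20% the counts were 0 of 3 siRif1 and 4 of 6 siCont 4-cell cells, and 0 of 3 siRif1 and 2 of 4 siCont 8-cell cells. From 80% up they were 1 of 1 siRif1 and 4 of 4 siCont 4-cell cells. In morulae they were 2 of 2 siRif1 and 1 of 2 siCont cells there, the reverse order.

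The state of the core followed S phase position only loosely. Of all pairs of a cell with and a cell without most of the core replicated, the replicated cell was the further in S phase in 59.1% of pairs in siRif1 and 55.9% in siCont 8-cell embryos, where 50% means no order. The median over windows of 2 Mb was 72% in siRif1 and 77.5% in siCont cells of that stage. The core stood at 63.1% in siRif1 and 59.3% in siCont cells of the 4-cell stage, and in morulae at 58.7% in siRif1 and 46.5% in siCont cells. Of the windows, 9.54% were lower than the core in siRif1 and 0.773% in siCont 8-cell cells. The S phase position that best split cells with from cells without the core replicated left 8 of 49 siRif1 and 21 of 60 siCont cells of the 8-cell stage on the wrong side, close to the 8 and 22 cells left by calling all cells of a group alike. The difference of these split positions is therefore not given as a measure of delay.

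**Figure D5:**
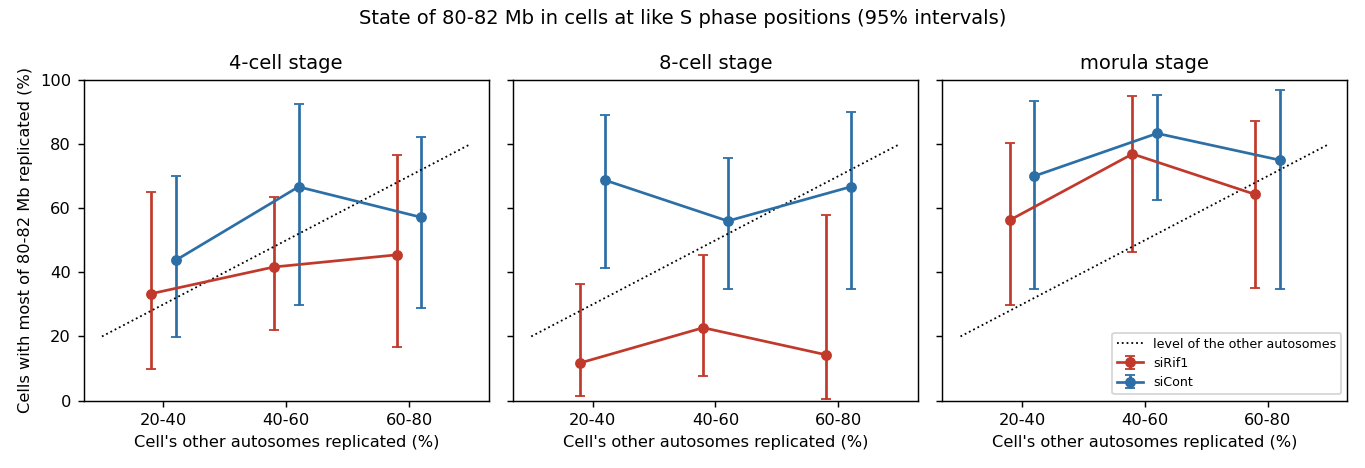
Percent of cells with most of the core replicated (vertical axis) in cells with 20 to 40, 40 to 60 and 60 to 80% of their other autosomes replicated (horizontal axis), for siRif1 (red) and siCont (blue); bars are exact 95% intervals and the dotted line is where the core would match the other autosomes. The siRif1 points lie below the siCont points in all 9 pairs, and neither curve of the 8-cell stage climbs with S phase position. The few cells below 20% or from 80% up are not shown.

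Grouped by role, the genes of the interval followed their place in it. All of the 171 measured protein-coding genes, in 79 bins, had a negative 8-cell shift, against 71.9% of all 19410 measured genes. Of the 171 genes, 123 were at least 30 points later, against 3.84% of all measured genes. The interval was chosen by this contrast, so these counts and the 8-cell values of the lists below are part of that choice. Transcription and chromatin genes (17 measured) had a median 8-cell shift of -36.4 points, with 13 at least 30 points later. Among them Tle2 and Tle5, which encode Groucho-family corepressors, stood at -42.5 points, and Nfyb, a subunit of the CCAAT-binding factor, lay outside the core and stood at -20.8 points. The 9 translation and RNA genes had a median of -39.2 points and were all at least 30 points later. Eef2, the elongation factor that moves the ribosome along the messenger, stood at -42.5 points, Cirbp, a cold-inducible RNA-binding protein, at -41.2 points and Rexo1 at -33.0 points.

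Signalling genes (13 measured) had a median 8-cell shift of -40.5 points, and 12 were at least 30 points later. The G protein alpha subunit genes Gna11 and Gna15, which share a bin, stood at -44.2 points, and Shc2, left of the core, stood at -27.5 points. Of the 5 oocyte, embryo and germline genes, 4 were at least 30 points later at the 8-cell stage. Tle6, a maternal-effect gene of the subcortical maternal complex, was replicated in 8 of 49 siRif1 and 39 of 60 siCont cells (-42.5 points). Izumo4, of the Izumo sperm protein family, stood at -40.5 points and Dnmt3l, a cofactor of de novo DNA methylation, at -26.2 points. The neutrophil protease genes Elane and Prtn3 share a bin and stood at -35.8 points, whereas Icosl, a costimulatory ligand, stood at -26.2 points.

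The 14 chemosensory receptor genes had a median 8-cell shift of -11.8 points, with 1 gene, Vmn2r83 at the border, at least 30 points later (-30.3 points). Olfr1358 stood at -22.8 points and Olfr57 at -4.91 points. Zfp938, the only one of 4 zinc finger genes in a used bin, lies right of the unmeasured stretch. It was replicated in 7 of 49 siRif1 and 37 of 60 siCont cells of the 8-cell stage (-41.2 points). It had the same state as Nfic in 45 of 49 siRif1 and 48 of 60 siCont cells.

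The lists had these values at the other stages. Receptor genes had a median shift of 0.927 points at the 4-cell stage and 7.92 points in morulae, with 13 of 14 positive in morulae. Translation and RNA genes had medians of -19.96 points at the 4-cell stage and -13.4 points in morulae, with 9 of 9 negative at both. Signalling genes had medians of -21.7 and -11.1 points, with 13 of 13 negative at both. Transcription and chromatin genes had medians of -17.8 points, with 17 of 17 negative, and -8.92 points, with 12 of 17 negative. Over all measured genes the medians were -2.31 points at the 4-cell stage, with 59.6% negative, and -8.04 points in morulae, with 74.8% negative. None of the 171 genes was at least 30 points later at the 4-cell or morula stage, against 0.165 and 0.999% of all genes. The morula medians of the translation, signalling and transcription lists lay within 6 points of that of all genes, whereas the median of the receptor genes had the opposite sign. Members of a list share bins and neighbours.

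Other gene-dense windows went both ways. The 20 gene-densest other windows of 2 Mb, with 75 to 116 genes, had a median 8-cell shift of -10.4 points. They ranged from -34.3 to 14.8 points, so that none was as low as the core, and 13 of the 20 were negative. The interval was chosen for its late siRif1 8-cell value, so the core's place below these windows at that stage is part of that choice. Their 4-cell shifts had a median of -2.42 points and a lowest value of -14.4 points, again with none as low as the core and 13 of 20 negative. Their morula shifts were negative in 15 of 20 windows (median -6.61 points), and 6 of the 20 were lower than the core.

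Of 2305 windows of 1 Mb elsewhere, 5 came nearest to the core in their centred shares over the 6 groups, at Euclidean distances of at most 16.4 points against a median distance of 52.1 points. They lay on chromosome 11 from 116 to 117 Mb, with Rnf157 and Mgat5b, on chromosome 4 from 151 to 152 Mb, with Camta1 and Dnajc11, from 125 to 126 Mb, with Grik3 and Meaf6, and from 141 to 142 Mb, with Fhad1 and Spen, and on chromosome 7 from 19 to 20 Mb, with Mark4 and Ppp1r37. Their 8-cell shifts were -21.6 to -28.3 points, their 4-cell shifts -11.4 to -18.2 points and their morula shifts -3.64 to -9.88 points. The 6 values were matched for likeness, so the agreement in order is part of the choice.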

How the data were processed

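The authors deposited 1 table per group with a replication state of 0, 1 or NA for each 50-kb bin of chromosomes 1 to 19 and each cell. Tools listed in the submitters' processing notes are Bowtie2 2.5.1, SAMtools, Picard, bedtools and R 4.2.3, with the build GRCm38. The sources used here do not give the calling of states or the filter on cells, and read depth per cell is unknown. Of 416 labelled cells, 299 had a column and were used. Cells were measured at 88.1 to 94.1% of all bins, and no pair of cells was identical over the used bins. The median cell had replicated 43.0 to 51.4% of its used bins in the 6 groups. The shortest interior run of 1 state was 5 measured bins (250 kb), so states had been smoothed or segmented before deposit. State 1 was taken to mean replicated, since bins with a gene midpoint had the higher mean share of 1 in all 6 groups (47.2 to 64.2%, against 41.3 to 48.7% in other bins).

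Shares, centring, shifts and intervals were computed with Python 3.11.15, numpy 2.4.6, pandas 2.3.3 and scipy 1.17.1. Shifts of centred shares and split positions were tested on simulated data, in which cells and bins were independent, unlike the smoothed states. The intervals were not tested this way. A stretch counted as replicated in a cell where most of its measured bins were. Genes were placed by their midpoint with a RefSeq table of GRCm38.p6, and 19410 of 20665 autosomal protein-coding genes lay in a used bin. Named genes were the 5 landmarks, per list the 2 genes of largest and the 1 of smallest absolute 8-cell shift, the gene nearest each border and the longest genes of the windows most alike. The interval, genes and lists were chosen with earlier results of these data known. Itgb2, listed among leukocyte genes, lies outside the interval. No test was run, because each group is 1 sample.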

Additional observations from a re-analysis of the deposited data

Results flagged for a closer look

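The window from 79 to 79.5 Mb, over part of the receptor genes, had shifts of opposite sign between stages. Its shift was 5.88 points at the 4-cell stage, -14.6 points at the 8-cell stage and 7.82 points at the morula stage. Its replicated share was 25.1% in siRif1 and 15.3% in siCont 4-cell embryos, 7.76% in siRif1 and 28.5% in siCont 8-cell embryos, and 30% in siRif1 and 21.6% in siCont morulae. The window from 78.5 to 79 Mb, over other receptor genes, had shifts of -5.49, -18.1 and 2.13 points at the 4-cell, 8-cell and morula stages. The difference between stages was not tested, since each group is 1 sample, and only windows of 0.5 Mb with shifts of at least 5 points in both directions were listed.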

How the results depend on the processing

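The direction of the core's shift held in every setting tried at the 4-cell and 8-cell stages. At the 8-cell stage it was -38.4 points with cells between 20 and 80% replicated and -47.1 points with cells paired within 5 points of percent replicated. It was -42.5 points with classes of S phase position weighted alike. At the 4-cell stage these settings gave -15.9, -17.7 and -18.4 points. The classes were 0 to 25, 25 to 50, 50 to 75 and 75 to 100% replicated, and only classes with cells of both treatments were used. The class from 75 to 100% was left out at the 8-cell stage (0 siRif1 and 3 siCont cells). The class from 0 to 25% was left out in morulae (1 siRif1 and 0 siCont cells). On percentile ranks of bins the shift was -50.5 points at the 4-cell stage, -66.6 points at the 8-cell stage and -4.75 points in morulae. With those classes weighted alike the morula shift was reversed, at 1.69 points. The class from 75 to 100% then rests on 3 siRif1 and 3 siCont cells, and the cause was not tested. Leaving out 1 cell at a time, chosen after seeing the data, gave -21.7 to -18.1 points at the 4-cell stage, -41.7 to -38.3 points at the 8-cell stage and -13.3 to -9.48 points in morulae.

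At a size of 20 points, 20 bins of the interval were later at the 4-cell stage and 2 in morulae, where none passed 30 points. At 40 points, 19 bins were later at the 8-cell stage. Shares of all used bins were taken at 30 points only, so the counts at 20 and 40 points cannot be set against the genome. The right border of siCont 8-cell embryos moved to 83.35 Mb with 10 bins on each side. The split position of the core in S phase, siRif1 minus siCont, was unstable. It was 38.7 points at the 4-cell stage, but -2.64 with all bins required, 44.4 with the bin of Dot1l and 49.6 by logistic regression. At the 8-cell stage it was 71.9 points, but 31.1 with all bins required and 121 by logistic regression, beyond the range of S phase. In morulae it was 16 points, but -6.92 with all bins required and -100.2 by logistic regression. The shifts of the 5 landmark genes moved by less than their counting error over gene bodies and in cells between 20 and 80% replicated. No paired analysis was possible because the number in a cell's label only counts cells and each group is 1 sample. Bases of the bins and depth per cell were not used here, and 44 to 60 cells per group limit each share.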

Other observations

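In siRif1 embryos some of the gene-densest windows were less ordered with S phase position than the core. In siCont embryos at most 1 window was, at any stage. Among the 20 gene-densest other windows of 2 Mb, those with at least 5 cells in each state had a median of 65.1% of cell pairs in order in siRif1 8-cell embryos (18 windows) and 66.9% in siCont 8-cell embryos (20 windows). The core stood at 59.1% in siRif1 and 55.9% in siCont 8-cell embryos, with 7 of the 18 windows lower in siRif1 and 0 of the 20 lower in siCont. At the 4-cell stage 7 of 20 windows were lower than the core in siRif1 and 1 of 20 in siCont. In morulae 4 of 20 windows were lower than the core in siRif1 and 0 of 17 in siCont. Cells in these windows are the same cells as in the core, so the values describe these groups and were not tested.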
